A study of Homo sapiens with 12 samples.

Results

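Transcripts of 34 glycolysis and hypoxia-response genes were followed in HCT116 cells, a human colon carcinoma line, of the 58051 genes in the count tables. The genes were chosen by name and function, and each symbol was matched to its Ensembl identifier. It holds 3 glucose and lactate transporters, 11 genes of upper glycolysis and its regulators, 8 of lower glycolysis and the fate of pyruvate, 4 of hypoxia-inducible factor (HIF) and its feedback, and 8 other targets of HIF. Cells were transfected with a control siRNA (siControl) or with an siRNA against prefoldin subunit PFDN2 or PFDN5, 1 siRNA sequence per target. Serum was withdrawn 24 h later for 48 h in all groups, and RNA was taken at the end of starvation (before serum) or 90 min after serum was given back. This gave 6 groups of 2 libraries. The design asks what serum did to these transcripts under each siRNA, and whether either prefoldin siRNA changed their level or their response.

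Glycolysis converts glucose to pyruvate in the cytosol. Hexokinase traps glucose, phosphofructokinase commits it to the pathway, and lactate dehydrogenase and the lactate exporter SLC16A3 let flux run when mitochondria oxidise little pyruvate. Many of these genes are targets of HIF, whose alpha subunit is hydroxylated by the EGLN enzymes and degraded when oxygen is present, and tumour lines such as HCT116 express the pathway strongly in normal oxygen. Growth factors in serum act on the same genes through HIF1A synthesis, MYC and immediate-early transcription factors. PFDN2 and PFDN5 are subunits of prefoldin, a chaperone that hands unfolded actin and tubulin to the TRiC chaperonin.

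Gene-body counts were 59784425 to 136504590 per library, of which the listed genes took 0.848 to 1.19%. PFDN2 stood at 11.5 and 11.2 CPM (counts scaled to library size by TMM) in siControl and 7.55 and 8.49 in siPFDN2 before serum, and at 19.5 and 16.3 against 8.73 and 9.47 after it. Library size was taken separately for gene-body, exon and intronic counts, so CPM of 1 kind are not a part of CPM of another. PFDN5 stood at 76.8 and 68.9 CPM in siControl and 40.97 and 44.2 in siPFDN5 before serum. After serum it was at 67.9 and 74.03 CPM in siControl and 67.5 and 68.6 in the libraries labelled siPFDN5, so the target does not show a knockdown there and directions drawn from those libraries rest on the label alone. The libraries of siPFDN2 before serum stood apart from each other: of 12105 well-counted genes, 22.7% were at least 0.5 higher (log2) in replicate 2 than in replicate 1 and 31.4% at least 0.5 lower. The 6 epithelial markers were counted in every library (59.8 to 1224 CPM). The 6 markers of blood, fibroblast, muscle, endothelial and liver cells summed to 11.5 to 25.02 CPM, of which COL1A1 (4.14 to 17.4 CPM) and ACTA2 (6.05 to 12.9 CPM) took the most, with PTPRC, COL3A1, ALB and PECAM1 at or below 0.502 CPM. In bulk RNA, fewer cells of a kind and less RNA per cell cannot be told apart.

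The most abundant members were enzymes of glycolysis, with GAPDH, ENO1 and PKM from the lower pathway and TPI1 and ALDOA from the upper. Per exon length, GAPDH had a lowest, median and highest level over the 12 libraries of 1001, 1151 and 1307 RPKM (counts per exon length and library size). Enolase ENO1 followed at 404, 526 and 576 RPKM and triosephosphate isomerase TPI1 at 179, 239 and 269.5, and these 3 ranges did not overlap. Pyruvate kinase PKM (133, 148 and 207 RPKM) and aldolase ALDOA (87.7, 117 and 162) came next, with ranges that overlapped that of TPI1 in the case of PKM and each other. At the low end were the pyruvate dehydrogenase kinase PDK1 with a median of 1.99 RPKM, the glucose transporter SLC2A3 with 1.33, the HIF hydroxylase EGLN3 with 0.869 and carbonic anhydrase CA9 with 0.219. CA9 was counted 17 to 70 times per library and shares 38.5% of its exonic bases with ARHGEF39 on the other strand. Since counting was not by strand, its reads cannot be told from those of that neighbour. Among isozymes, ALDOA stood above ALDOC in every library, PFKP above PFKM and PFKL, and SLC2A1 above SLC2A3. The ratio of the highest to the lowest library ran from 1.26 for PFKM to 6.72 for SLC2A3. PKM is spliced to include 1 of 2 alternative exons, and the PKM2 form is the one usual in proliferating cells. In the authors' transcript estimates, transcripts with the PKM2 exon took 91.4 to 93.7% of the counts of transcripts with 1 exon of the pair, over the 12 libraries. Reads on the 2 exons themselves were not counted.

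**Figure D1:**
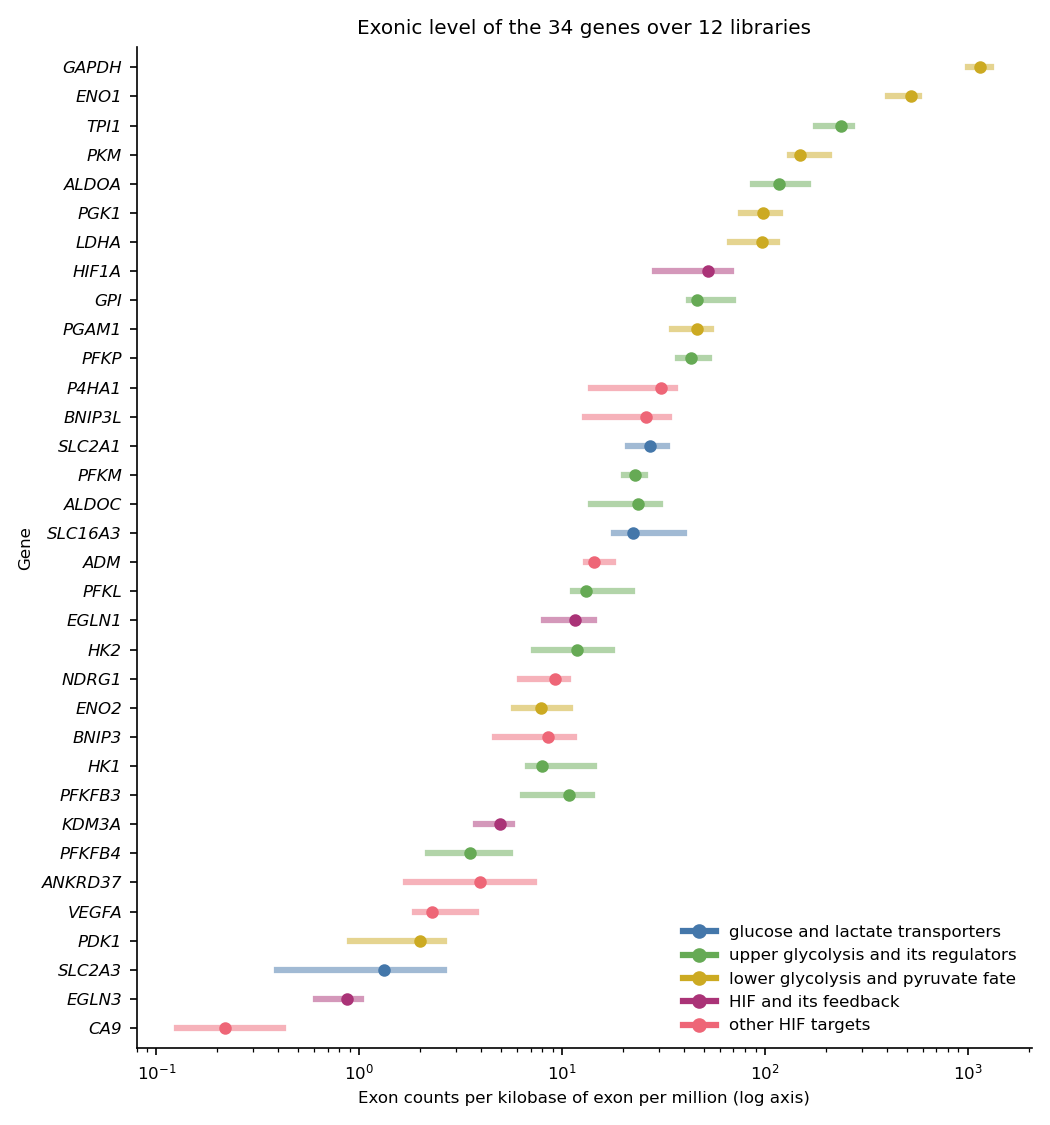
Exon RPKM of the 34 genes on a log axis, over the 12 libraries of the 6 groups (2 libraries each). Each line runs from the lowest to the highest library, and the dot is the median. Genes are ordered by their mean level in siControl before serum. GAPDH lies between 1001 and 1307 RPKM and CA9 below 0.42, and SLC2A3 has the widest spread, 6.72-fold from its lowest to its highest library.

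HIF binds DNA at a short core, ACGTG or GCGTG. The ACGTG core is also part of the E-box CACGTG bound by MYC and the USF and CLOCK factors. In the 250 bases before the RefSeq start site (GRCh38.p14), counting both strands, ACGTG occurred in 13 of the 30 members with a window, 43.3%, and in 18.5% of all 34943 windows. GCGTG occurred in 11 members, 36.7%, and in 32.2% of all windows. CACGTG, which contains ACGTG on both strands, occurred in 5 members, 16.7%, against 6.32% of all windows. The AP-1 motif TGANTCA occurred in 2 members, 6.67%, against 6.59%, and the CREB motif TGACGTCA in 1, 3.33%, against 1.63%. A match is a description of letters and not of binding. The stretches of 30 bases below lie 10 to 181 bases before the start sites of members on which the results turn, with the HIF cores of either strand in capitals (on the other strand they read CACGT and CACGC). The first 2 are upstream of genes whose transcripts rose after serum, and the other 5 of genes whose intronic counts fell. They are a choice and not every such gene. The windows of HK1, PFKM, TPI1 and PDK1, whose intronic counts also fell, held neither core. Those of GPI, PFKL and PFKFB4, which fell likewise, each held 1. SLC2A3, which rose most, had no window.
ANKRD37 at chr4:185396676-185396705, plus strand: ctcCACGTGccagtgtttgtgtACGTGcgg
PFKFB3 at chr10:6144740-6144769, plus strand: gggcggcccggccCACGCcccggcttcccc
BNIP3 at chr10:131982041-131982070, minus strand: cgcgCACGCgccgCACGTGccaCACGCacc
KDM3A at chr2:86441332-86441361, plus strand: tccgggaggctgtGCGTGtcttgtgagagc
P4HA1 at chr10:73096936-73096965, minus strand: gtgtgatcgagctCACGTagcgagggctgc
HK2 at chr2:74834063-74834092, plus strand: agccaatggGCGTGcgCACGTcactgatcc
LDHA at chr11:18394470-18394499, plus strand: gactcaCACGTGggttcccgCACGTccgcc

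Serum changed the gene-body counts of 5 of the 34 genes when the response was averaged over the 3 siRNAs. The glucose transporter SLC2A3, the ankyrin-repeat HIF target ANKRD37, the phosphofructokinase activator PFKFB3 and EGLN3 rose, and PFKFB4, a relative of PFKFB3, fell. The EGLN3 rise lies in counts outside its exons. These are 11.8% higher and 2.94% lower of the members. Of all 27915 genes tested, 14.9% were called at an adjusted p under 0.05, 7.6% higher and 7.31% lower, so the share of members called was near that background. The median log2 fold change was 0.13 over the members and -0.03 over all genes. In exon counts 3 members were called, SLC2A3, ANKRD37 and PFKFB3, against 11% of all genes (5.85% higher, 5.11% lower). The count of 5 depended on single libraries. It was 16 (10 higher, 6 lower) without siPFDN2 before serum replicate 1, where 47.3% of all genes were called. It was 3 without siControl before replicate 2, siPFDN2 after replicate 2 or the library labelled siPFDN5 after replicate 2 (7.82%, 7.12% and 7.51% of all genes), and 2 without siPFDN5 before replicate 1 (7.08%). It was 3 with siPFDN2 or siPFDN5 left out of the average (6.83% and 8.09% of all genes).

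Among the transporters, SLC2A3, the high-affinity glucose transporter GLUT3 (chromosome 12, 7919230 to 7936275, minus strand), had the largest rise of any member. Its levels were in siControl 3.95 and 6.08 CPM before serum and 12.3 and 13.4 after it, in siPFDN2 2.61 and 2.02 before and 7.49 and 7.54 after, and in siPFDN5 3.57 and 3.86 before and 10.1 and 8.84 in those so labelled after. Both libraries after serum lay above both before it under each siRNA. The averaged response was a log2 fold change of 1.47 (SE 0.13, edgeR adjusted p = 1.82e-05), and its call held under all 24 alternatives (adjusted p 1.40e-25 to 2.47e-04). Taken singly, it rose by 1.36 (SE 0.21) in siControl, 1.70 (SE 0.22) in siPFDN2 and 1.35 (SE 0.22) in the comparison that uses the libraries labelled siPFDN5 (edgeR adjusted p = 0.00473, 0.00148 and 0.00583). The siControl call is lost without siControl before replicate 1 (adjusted p 0.0783; range 4.10e-07 to 0.0783). The siPFDN2 call is lost when only the libraries compared are fitted (range 8.27e-11 to 0.114). The siPFDN5 call is lost without siPFDN5 before replicate 1 or 2 or the library labelled siPFDN5 after replicate 1 (range 5.35e-07 to 0.0923). SLC2A1, the main glucose transporter of most cells, had an averaged value of 0.30 (SE 0.10), and the lactate exporter SLC16A3 one of -0.05 (SE 0.12), neither called. Every siPFDN5 response here and below uses the libraries labelled siPFDN5 after serum.

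In upper glycolysis 1 of 11 genes rose and 1 fell. PFKFB3 makes fructose 2,6-bisphosphate, the activator of phosphofructokinase (chromosome 10, 6144934 to 6235545, plus strand). Its levels were in siControl 38.6 and 37.4 CPM before serum and 69.7 and 68.8 after it, in siPFDN2 39.9 and 70.1 before and 55.2 and 56.8 after, and in siPFDN5 41.5 and 42.8 before and 64.3 and 72.2 in those so labelled after. In siControl and siPFDN5 the groups did not overlap, while in siPFDN2 replicate 2 before serum stood above both libraries after it. The averaged response was a log2 fold change of 0.53 (SE 0.12, edgeR adjusted p = 0.0169). It was not called under 6 of 24 alternatives, 4 of which leave out 1 library (siControl before replicate 2, siPFDN5 before replicate 1, siPFDN2 after replicate 2 or the library labelled siPFDN5 after replicate 2; adjusted p 2.00e-07 to 0.0974 over all). PFKFB4, which acts on the same metabolite, lies on chromosome 3, 48517684 to 48562015, minus strand, and had levels in siControl 19.4 and 29.2 CPM before serum and 12.7 and 19.1 after it, in siPFDN2 28.1 and 33.7 before and 22.3 and 20.7 after, and in siPFDN5 20.03 and 22.1 before and 18.9 and 17.4 in those so labelled after. Every library after serum was below every library before it under the same siRNA. The averaged response was a log2 fold change of -0.45 (SE 0.13, edgeR adjusted p = 0.0427). That call was lost under 13 of 24 alternatives, among them exon counts and 9 of the 12 fits without 1 library (adjusted p 0.00159 to 0.158). The call held without siControl before replicate 1, siPFDN2 before replicate 1 and siControl after replicate 2. None of the hexokinases, phosphofructokinases, aldolases, GPI or TPI1 was called in the average. The hexokinases had log2 fold changes of -0.24 (HK1) and -0.05 (HK2), and the phosphofructokinases of 0.13 (PFKP), 0.05 (PFKM) and -0.15 (PFKL). The aldolases ALDOA and ALDOC stood at 0.09 and 0.01, GPI at -0.08 and TPI1 at 0.15.

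In lower glycolysis no gene of 8 was called, 7 had positive values, and the values ran from -0.09 to 0.24 (log2 fold change) with a median of 0.18. LDHA, which reduces pyruvate to lactate, stood at 0.24 (SE 0.11), and PGK1, the first step that yields ATP, at 0.23 (SE 0.10). GAPDH stood at 0.18 (SE 0.08) and ENO1 at 0.17 (SE 0.09), beside -0.09 (SE 0.14) for its neuronal isozyme ENO2. PGAM1, PKM and PDK1 stood at 0.19 (SE 0.10), 0.03 (SE 0.09) and 0.20 (SE 0.20). GAPDH shares 14.2% of its exonic bases with the antisense gene AC006064.4, whose reads cannot be told apart from its own.

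HIF1A encodes the oxygen-labile subunit of HIF. Its levels were in siControl 224 and 222 CPM before serum and 236 and 246 after it, in siPFDN2 263 and 126 before and 297 and 287 after, and in siPFDN5 204 and 209 before and 242 and 231 in those so labelled after. Both libraries after serum were above both before it under each siRNA, but the averaged value was not called (log2 fold change 0.30, SE 0.15, edgeR adjusted p = 0.182). EGLN3, a hydroxylase that marks HIF alpha for degradation, is annotated over 538544 bases (chromosome 14, 33924231 to 34462774, minus strand), and 86.3% of its gene-body counts are intronic. The exons of SPTSSA, on the same strand, lie inside EGLN3 introns, and their counts are 75.6% of EGLN3's intronic counts. EGLN3's gene-body levels were in siControl 26.2 and 31.1 CPM before serum and 44.01 and 42.7 after it, in siPFDN2 32.6 and 21.4 before and 43.8 and 42.6 after, and in siPFDN5 38.6 and 39.2 before and 44.6 and 43.1 in those so labelled after, a log2 fold change of 0.48 (SE 0.11, edgeR adjusted p = 0.0137), with an adjusted p of 1.25e-06 to 0.311 over the alternatives of this value. Its exon counts were in siControl 5.46 and 7.53 CPM before serum and 4.51 and 5.97 after it, in siPFDN2 7.24 and 6.39 before and 6.44 and 6.56 after, and in siPFDN5 6.91 and 6.40 before and 5.71 and 5.23 in those so labelled after, an averaged value of -0.22 (SE 0.11), not called (edgeR adjusted p = 0.215). The exon and gene-body values had opposite signs. SPTSSA itself, a subunit of serine palmitoyltransferase, rose by 0.67 in exon counts (edgeR adjusted p = 0.0216). The gene-body call of EGLN3 is also lost without siControl before replicate 1 or siPFDN5 before replicate 1. EGLN1, the main hydroxylase of HIF alpha, stood at 0.22 (SE 0.11) and the histone demethylase KDM3A at 0.09 (SE 0.11), neither called.

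Of the 8 other HIF targets, ANKRD37 alone was called (chromosome 4, 185396021 to 185400628, plus strand). Its levels were in siControl 5.75 and 6.34 CPM before serum and 8.72 and 11.1 after it, in siPFDN2 7.12 and 3.74 before and 14.2 and 12.9 after, and in siPFDN5 7.99 and 6.78 before and 16.7 and 15.4 in those so labelled after. Under each siRNA both libraries after serum exceeded both before it. The averaged response was a log2 fold change of 1.05 (SE 0.15, edgeR adjusted p = 9.13e-04), and its call held under all 24 alternatives (adjusted p 1.23e-13 to 0.0118). It shares 35.2% of its exonic bases with UFSP2 on the other strand, which rose by 0.52 (edgeR adjusted p = 0.0332). In the authors' transcript estimates, summed over the gene, ANKRD37 rose by 1.86. By siRNA its values were 0.72 (SE 0.26) in siControl, not called, 1.32 (SE 0.26) in siPFDN2 and 1.12 (SE 0.26) in siPFDN5. The siPFDN2 call is lost without either library of siPFDN2 after, and the siPFDN5 call without any 1 of its own 4 libraries. VEGFA, the angiogenic growth factor, stood at -0.10 (SE 0.12), adrenomedullin ADM at -0.09 (SE 0.08), the mitophagy receptors BNIP3 and BNIP3L at 0.21 (SE 0.20) and 0.28 (SE 0.18), NDRG1 at 0.12 (SE 0.12) and P4HA1 at 0.13 (SE 0.21), none of them called. CA9 was not called either, with few counts and a value of -0.07 (SE 0.27).

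**Figure D2:**
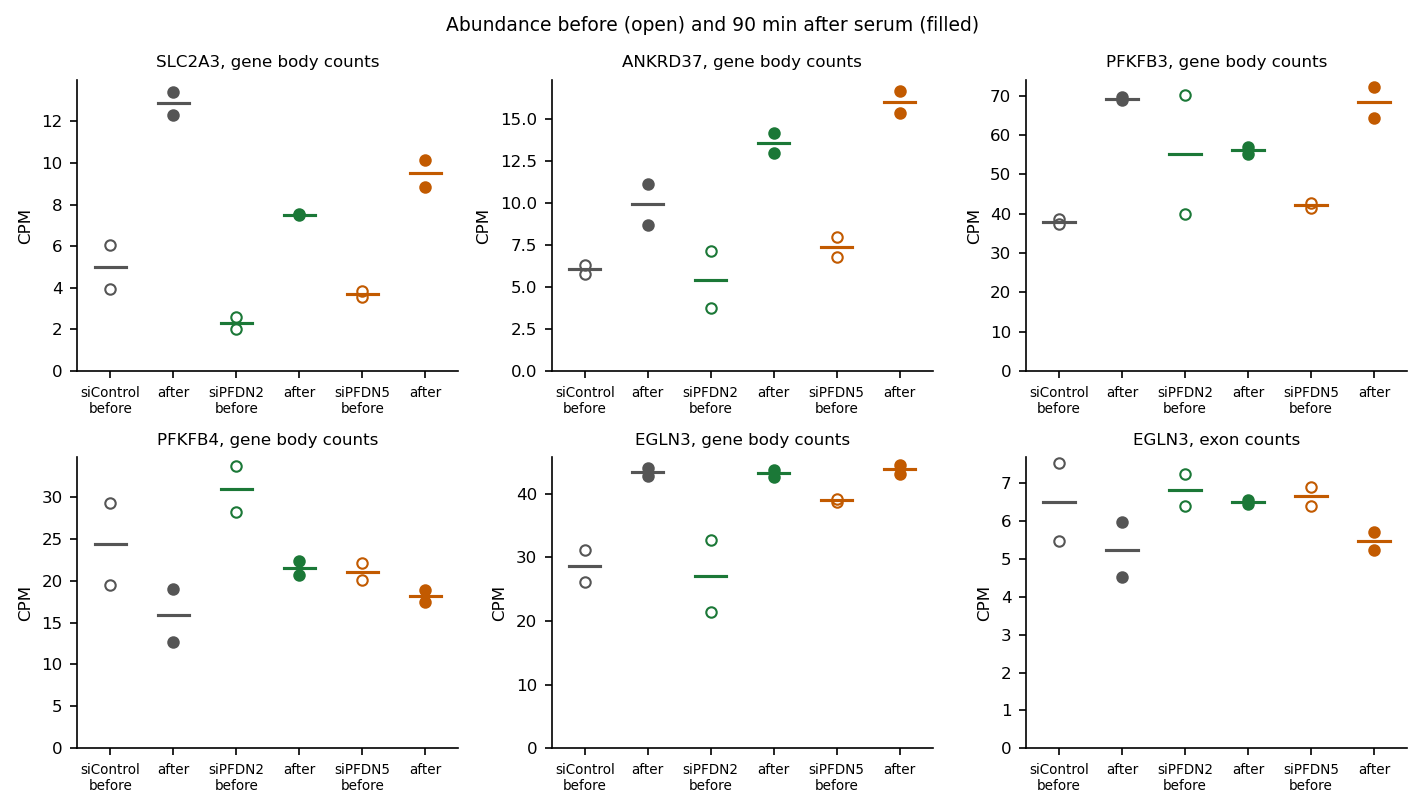
Gene-body CPM per library for SLC2A3, ANKRD37, PFKFB3, PFKFB4 and EGLN3, and exon CPM for EGLN3 in the last panel. Values are before and 90 min after serum under each siRNA (those after serum labelled siPFDN5 included), and each point is 1 library. SLC2A3 goes from 3.95 and 6.08 to 12.3 and 13.4 CPM in siControl, and in PFKFB3 replicate 2 of siPFDN2 before serum (70.1) stands above both libraries after it.

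Taken by siRNA, the members called after serum in gene-body counts were 1 in siControl (2.87% of all genes called, 2.47% higher), 2 in siPFDN2 (3.26%, of which 2.06% higher and 1.2% lower) and 4 in siPFDN5 (12.2%, of which 5.72% higher and 6.48% lower). They were SLC2A3 in siControl, SLC2A3 and ANKRD37 in siPFDN2, and SLC2A3, ANKRD37, TPI1 and SLC2A1 in siPFDN5, all higher. In exon counts the member called was SLC2A3 in siControl (2.13% of all genes, of which 1.73% higher and 0.394% lower). In siPFDN2 the members called were SLC2A3 and ANKRD37 (2.53%, of which 1.67% higher and 0.86% lower). In siPFDN5 they were SLC2A3, ANKRD37 and PFKFB3 (4.22%, of which 2.72% higher and 1.49% lower). TPI1 had in siControl 476 and 528 CPM before serum and 375 and 503 after it, in siPFDN2 525 and 557 before and 564 and 582 after, and in siPFDN5 420.0 and 418 before and 628 and 602 in those so labelled after. In siPFDN5 this was a log2 fold change of 0.55 (SE 0.15, edgeR adjusted p = 0.0412), and for SLC2A1 the value was a log2 fold change of 0.59 (SE 0.17, edgeR adjusted p = 0.0491). Both calls were lost under 13 of 23 alternatives, among them exon counts and the 8 fits that leave out 1 library of siControl before, siPFDN5 before, siPFDN2 after or the libraries labelled siPFDN5 after (adjusted p 7.35e-06 to 0.234 for TPI1 and 8.81e-06 to 0.244 for SLC2A1). These counts moved with single libraries, as did the share of all genes called. The siPFDN5 count was 15 without replicate 1 or 2 of siPFDN2 before (36% and 36.3% of all genes) and 8 without either of siControl after (15.2% and 15.1%). It was 2 without either library of siControl before (6.47% and 6.51%) or of siPFDN2 after (5.89% and 5.7%). It was 1 without the library labelled siPFDN5 after replicate 2 (1.05%), and 0 without siPFDN5 before replicate 1 or 2 or the library labelled siPFDN5 after replicate 1 (0.857%, 1.32% and 1.07%). The siControl count was 4 without either library of siPFDN2 before (9.79% and 9.95%) and 0 without siControl before replicate 1 (0.93%). The siPFDN2 count was 15 (6 higher, 9 lower) without siPFDN2 before replicate 1 (48.6%), 3 without its replicate 2 (4%) and 1 without either library of siPFDN2 after (0.818% and 0.957%).

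Intronic counts are the gene-body counts that fall outside exons. Their CPM are scaled to each library's intronic counts and cannot be set beside gene-body CPM. The intronic counts of PFKP, for example, are 8.75% of its gene-body counts over all libraries. They come from unspliced RNA, retained introns and genes that lie inside introns. They could be tested for 31 members (ADM, ALDOC and CA9 had too few). Averaged over the siRNAs, 12 of the 31 fell and 4 rose after serum, 38.7% and 12.9%, while of all 19731 genes tested 15.1% were called lower and 14.2% higher (29.3% in all). The fall was in BNIP3 (-1.68, SE 0.16), KDM3A (-1.27, SE 0.14), P4HA1 (-1.16, SE 0.14), HK1 (-1.15, SE 0.14), GPI (-1.13, SE 0.15), PFKM (-1.12, SE 0.12), PDK1 (-1.04, SE 0.20), TPI1 (-0.88, SE 0.22), PFKFB4 (-0.68, SE 0.14), LDHA (-0.65, SE 0.15), HK2 (-0.58, SE 0.13) and PFKL (-0.56, SE 0.16). Thus 7 of the 10 upper glycolysis genes tested fell, 2 of 8 of lower glycolysis, 2 of 6 other HIF targets and 1 of 4 in the HIF feedback group. The rise was in EGLN3 (0.83, SE 0.16), the phosphofructokinase PFKP (0.80, SE 0.13), NDRG1 (0.70, SE 0.14) and BNIP3L (0.38, SE 0.12). The other 15 tested lay between -0.37 for VEGFA and 0.42 for ANKRD37. The median log2 fold change was -0.24 over the members tested and -0.01 over all genes. No one library moved the count of 16 by more than 1.5-fold (14 to 19).

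BNIP3, a mitochondrial receptor for autophagy, had the deepest intronic fall. Its intronic levels were in siControl 5.59 and 9.29 CPM before serum and 2.48 and 2.30 after it, in siPFDN2 11.1 and 11.8 before and 3.30 and 3.54 after, and in siPFDN5 6.28 and 6.82 before and 2.14 and 2.01 in those so labelled after. The groups did not overlap in any siRNA (averaged edgeR adjusted p = 1.00e-06). KDM3A, a demethylase of histone H3 lysine 9 with no annotated gene overlapping it, had intronic levels in siControl 12.8 and 18.8 CPM before serum and 8.42 and 7.49 after it, in siPFDN2 21.3 and 15.9 before and 11.1 and 8.45 after, and in siPFDN5 22.7 and 21.1 before and 5.99 and 5.94 in those so labelled after. Again every library after serum lay below every library before it (edgeR adjusted p = 5.69e-06). HK1, the housekeeping hexokinase, had intronic levels in siControl 15.6 and 16.3 CPM before serum and 8.62 and 9.58 after it, in siPFDN2 13.5 and 21.2 before and 6.88 and 5.73 after, and in siPFDN5 17.4 and 17.9 before and 8.12 and 7.42 in those so labelled after, without overlap (edgeR adjusted p = 1.04e-05). Members lower after serum without overlap under each siRNA were HK1, HK2, GPI, PFKL, PFKM, PFKFB4, BNIP3, KDM3A and P4HA1. PFKP and EGLN3 were higher in the same way. The share of all genes without overlap was not counted, so this list is a description of the members only. P4HA1, a collagen prolyl hydroxylase subunit, had intronic levels in siControl 24.02 and 40.95 CPM before serum and 19.02 and 17.8 after it, in siPFDN2 41.9 and 34.6 before and 17.1 and 19.8 after, and in siPFDN5 49.4 and 44.5 before and 14.6 and 16.2 in those so labelled after (edgeR adjusted p = 1.67e-05), but AL731563.2, an antisense gene whose exons lie in its introns, has exon counts that are 75.2% of them. PFKP, the platelet-type phosphofructokinase, had intronic levels in siControl 57.5 and 59.1 CPM before serum and 142 and 128 after it, in siPFDN2 66.9 and 83.3 before and 118 and 102 after, and in siPFDN5 59.5 and 57.3 before and 93.3 and 88.2 in those so labelled after, higher after serum without overlap under each siRNA (averaged edgeR adjusted p = 2.42e-04). For EGLN3 the intronic rise carries the SPTSSA exons described above.

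**Figure D3:**
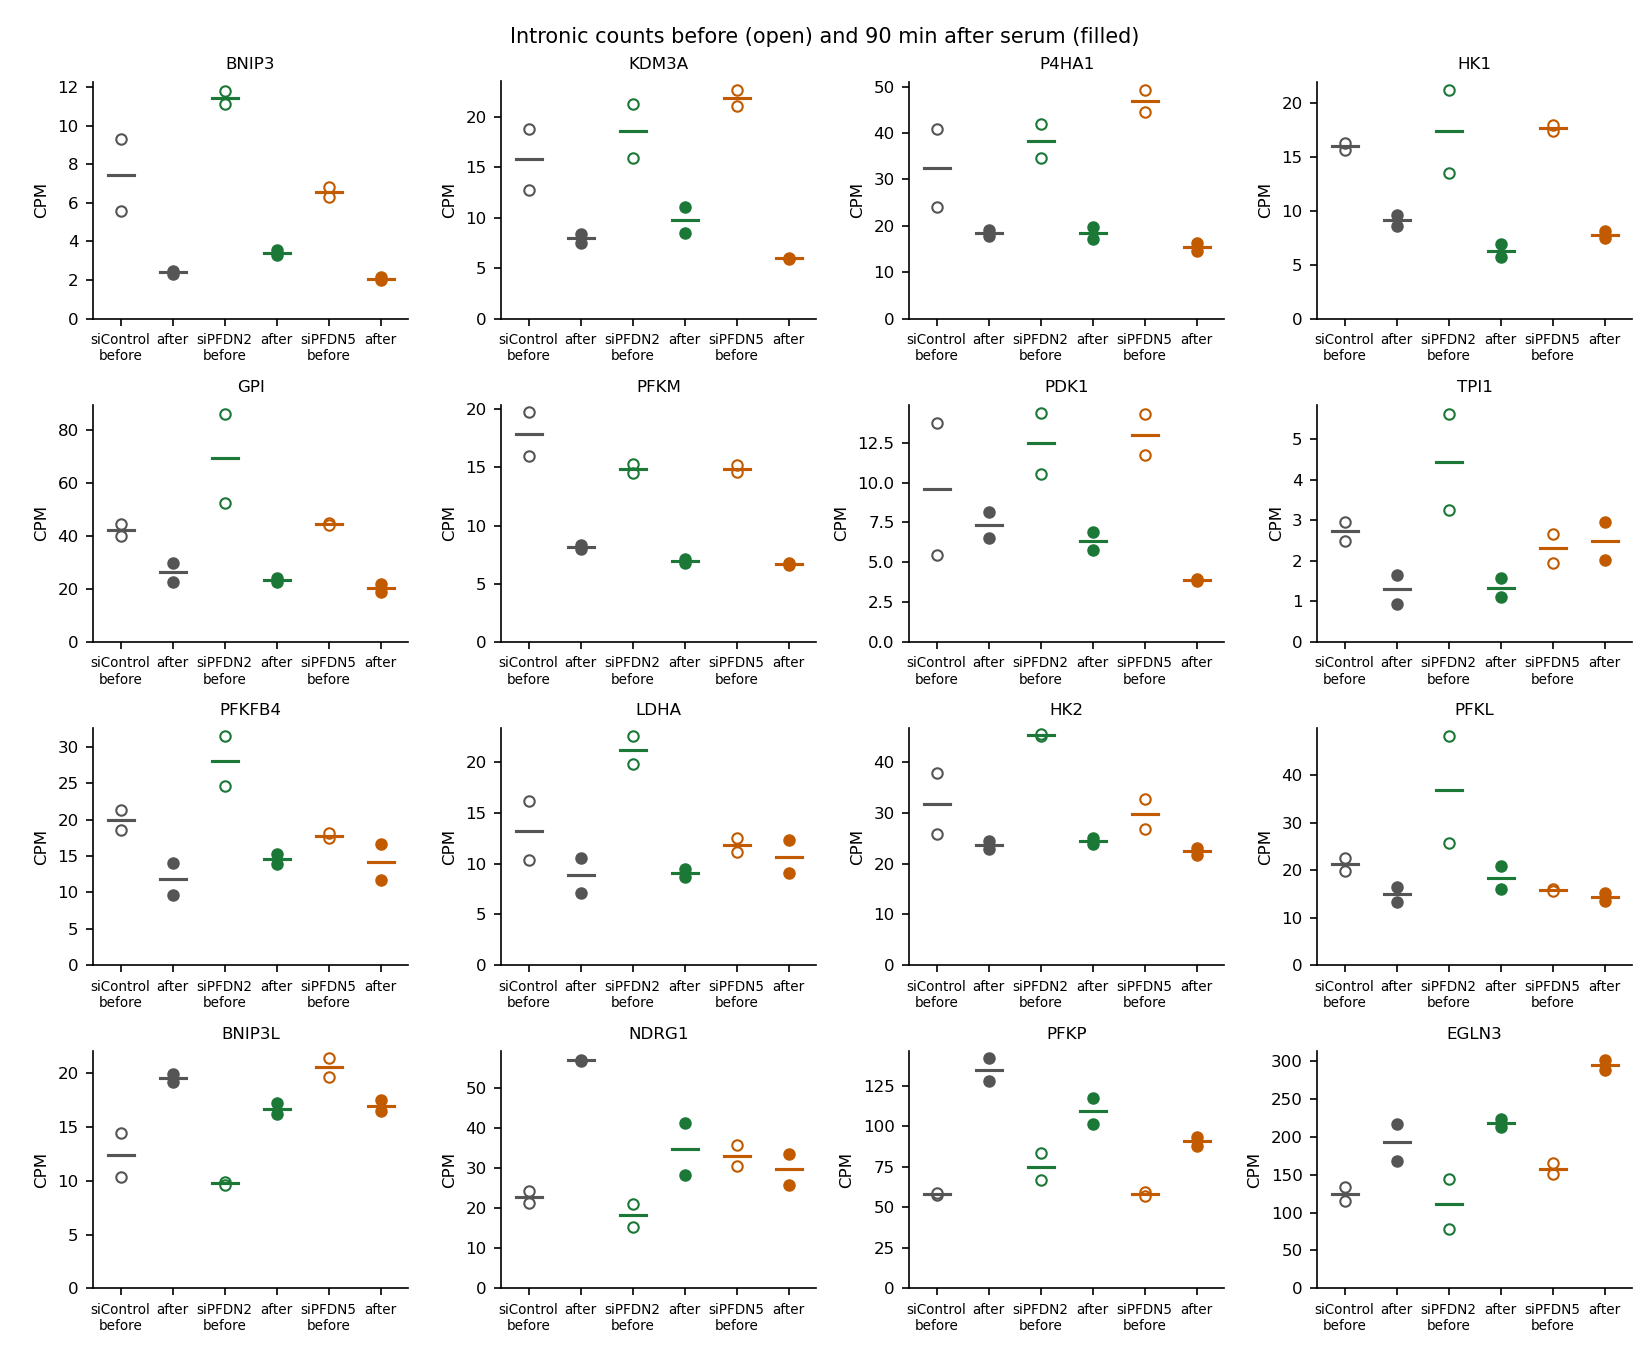
Intronic CPM per library, scaled to intronic counts, for members called in the averaged intronic response. Values are before and after serum under each siRNA. Each point is 1 library, with those after serum labelled siPFDN5 included. BNIP3 falls from 5.59 and 9.29 to 2.48 and 2.30 CPM in siControl, while PFKP rises from 57.5 and 59.1 to 142 and 128.

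In exon counts none of the 12 members whose intronic counts fell was called (smallest edgeR adjusted p = 0.0816). Their intronic values had a median of -1.08 and their exon values ran from -0.41 to 0.25. A test of the intronic against the exonic change, fitted with each library as its own block, called 19 of 31 members, 16 lower (51.6%) and 3 higher (9.68%). Of all 17390 genes in that test 21.7% were called, 11.5% lower and 10.2% higher, and the median was -0.37 over the members and 0.03 over all genes. The 16 hold 11 of the 12 genes above, without PFKFB4, and SLC2A1, SLC2A3, PGK1, PFKFB3 and ANKRD37. In BNIP3 the intronic change was lower than the exonic (difference -1.88, SE 0.19, edgeR adjusted p = 9.15e-06) and likewise in KDM3A (difference -1.36, SE 0.13, edgeR adjusted p = 3.13e-06). For SLC2A3 and PFKFB3, whose exon counts rose, the differences were -1.51 (SE 0.41) and -0.77 (SE 0.12). SLC2A3 has 95 intronic counts in all 12 libraries. The 3 called higher were EGLN3, PFKP and NDRG1. With the response averaged over siControl and siPFDN5 only, the count was 11 (2 higher, 9 lower; 11.2% of all genes), and over siControl and siPFDN2 only it was 17 (13.3%). Among 25 members whose introns take under 20% of their counts from the exons of other genes, 10 fell and 3 rose in intronic counts, and 13 fell and 2 rose relative to exons.

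**Figure D4:**
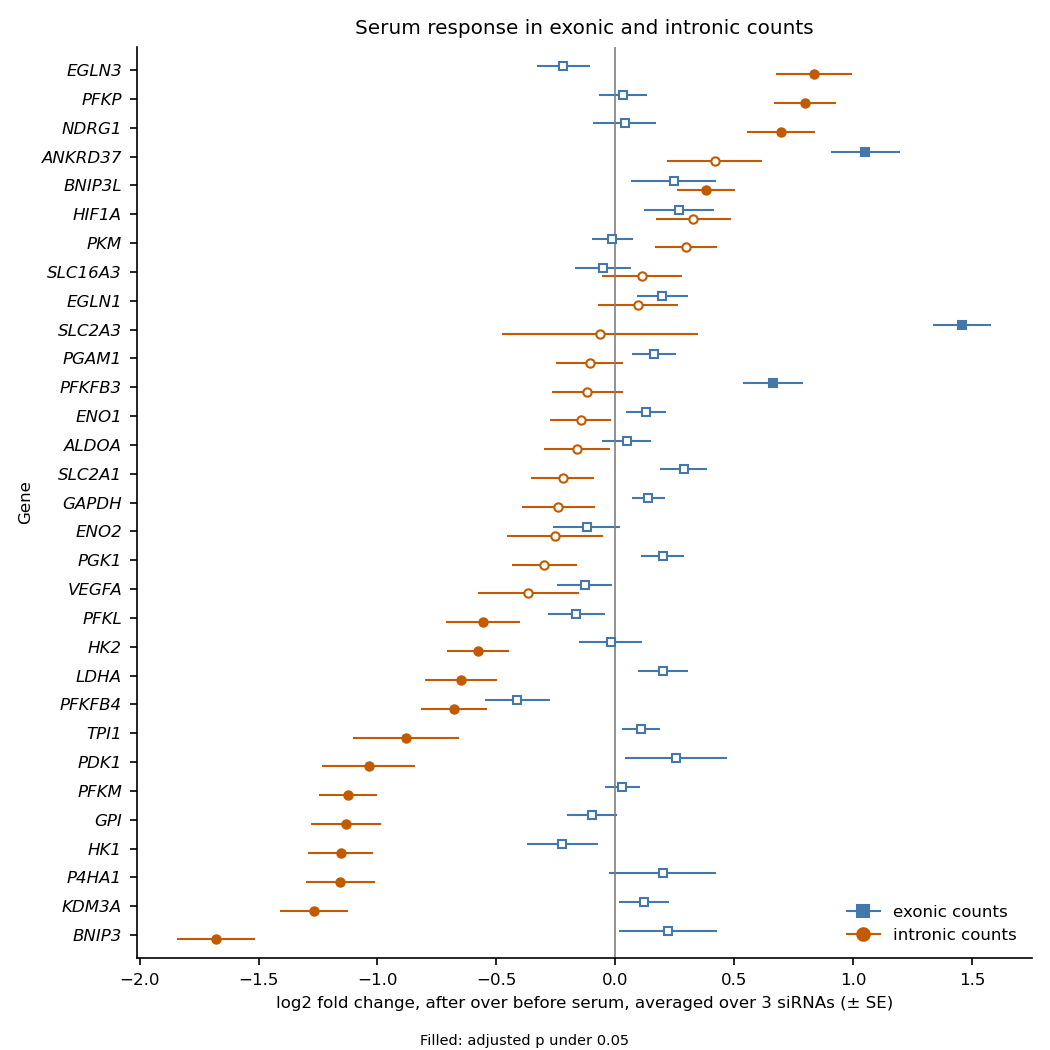
Averaged log2 fold change after serum (x axis) in exon counts (squares) and intronic counts (circles), with a row for each of 31 members. Bars are SE, filled symbols are called values and the vertical line marks no change. The 12 members whose intronic counts fell lie between -0.41 and 0.25 in exon counts and between -1.68 and -0.56 in intronic counts.

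By siRNA, the intronic counts of 2 members rose and 5 fell in siControl (8.63% of all genes called), 3 rose and 12 fell in siPFDN2 (11.8%), and 4 rose and 7 fell in siPFDN5 (27.8%). BNIP3, KDM3A, P4HA1, HK1 and PFKM fell in all 3. The values for BNIP3 were -1.64 in siControl, -1.74 in siPFDN2 and -1.66 in siPFDN5, and for KDM3A -0.99, -0.93 and -1.88. The members called in siPFDN5 but in neither other siRNA were PDK1 (-1.74) and SLC16A3 (0.83), and their differences from the other siRNAs were not called. SLC16A3 introns contain exons of CSNK1D, whose counts, in proportion to the bases shared, come to 113% of its intronic counts. For PDK1 the antisense gene AC078883.1 comes to 39.6% in the same way. GAPDH was called in opposite directions, lower in siPFDN2 (-1.05) and higher in siPFDN5 (0.87). The intronic share of all counts was 22.8 and 25.9% in siPFDN5 before serum and 17.2 and 14.8% in the libraries labelled siPFDN5 after it, against 14.99 to 20.9% in the other libraries. Its part in the siPFDN5 values was not tested.

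The difference between serum responses was tested directly. In gene-body counts no member was called for siPFDN2 minus siControl, where 0% of all genes were, or for siPFDN5 minus siControl, also 0%. At an unadjusted p under 0.05 there were 3 and 5 members and 1841 and 5847 genes in all. DESeq2 called 0 members for siPFDN2 (1 gene higher and 1 lower of 27915) and 1 for siPFDN5, TPI1 (397 and 1367 of 25750). The largest values for siPFDN2 minus siControl were -0.91 (SE 0.35) for HK1 and -0.84 (SE 0.30) for PFKFB3, and for siPFDN5 minus siControl 0.75 (SE 0.22) for TPI1 (edgeR adjusted p = 0.104; over its alternatives 0.0109 to 0.394) and 0.69 (SE 0.25) for the mutase PGAM1. Without siPFDN2 before replicate 2 the first 2 values were -0.38 for HK1 and -0.37 for PFKFB3. These 2 comparisons share the siControl libraries. The siPFDN2 count was 14 without siPFDN2 before replicate 1, where 37.7% of all genes were called. The siPFDN5 count was 8 and 9 without replicate 1 and 2 of siPFDN2 before (21.5% and 21.8% of all genes), and 4 without siControl after replicate 2 (10.9%). In intronic counts siPFDN5 minus siControl called 2 of 31 members, NDRG1 lower and GAPDH higher, beside 12.5% of all genes, and siPFDN2 minus siControl called none (0% of all genes; 2 members at an unadjusted p under 0.05).

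No member was called different in gene-body counts between a prefoldin siRNA and siControl, before or after serum. By edgeR 0 of 34 were called in each of the 4 comparisons, beside 0% of all genes for siPFDN2 at the end of starvation and 0% after serum. The background was 0.00716% for siPFDN5 at the end of starvation and 0.00358% in the comparison of the libraries labelled siPFDN5 after serum. Members at an unadjusted p under 0.05 numbered 8 and 2 for siPFDN2 before and after serum (3156 and 1747 of all genes), and 2 and 6 for siPFDN5 (3432 and 6032). DESeq2 called SLC2A3 for siPFDN2 before serum (15 genes higher and 12 lower of 17632). It called TPI1 for the libraries labelled siPFDN5 after serum (917 and 1027 of 23585), and no member otherwise. The median log2 differences over the members were 0.14 and 0.14 for siPFDN2 and 0.03 and 0.15 for siPFDN5, and over all genes -0.01, -0.05, 0.01 and -0.04. Both siRNAs were compared with the same siControl libraries.

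SLC2A3 had the largest difference of any member, and it was lower. In siPFDN2 it stood at 2.61 and 2.02 CPM before serum against 3.95 and 6.08 in siControl, and at 7.49 and 7.54 against 12.3 and 13.4 after it. The groups did not overlap at either time. The log2 differences were -1.12 (SE 0.22) and -0.77 (SE 0.21), with edgeR adjusted p = 0.442 and 0.772, not called. The adjusted p of the first ran from 3.27e-04 to 0.900 over 23 alternatives, 3 of which made the call (no filter on low counts, DESeq2, and without siPFDN2 before replicate 1). HK2, the inducible hexokinase, was at 68.3 and 94.5 CPM in siPFDN2 and 40.98 and 62.6 in siControl before serum, a difference of 0.65 (SE 0.22, edgeR adjusted p = 0.442; over its alternatives 0.0178 to 0.900). The difference in HK2 was 0.37 and 0.98 without replicate 1 and 2 of siControl before, and 0.40 without siPFDN2 before replicate 2. VEGFA was at 28.6 and 44.6 CPM against 22.6 and 26.3, a difference of 0.58 (SE 0.20), without overlap. Without siPFDN2 before replicate 2 it was 0.23, and with the GC trend removed 0.37. HK1 stood at 39.4 and 74.1 CPM in siPFDN2, 56.9 and 57.6 in siPFDN5 and 36.5 and 40.2 in siControl before serum. That is 0.57 (SE 0.25) with overlap for siPFDN2 and 0.58 (SE 0.25) without overlap for siPFDN5. The siPFDN2 value of HK1 was 0.94 without siPFDN2 before replicate 1 and 0.04 without its replicate 2. In siPFDN5 before serum EGLN3 (0.44), SLC2A3 (-0.43) and ALDOC (0.42) had the next largest differences. In exon counts the EGLN3 difference was 0.03. Without replicate 1 and 2 of siControl before, the SLC2A3 difference was -0.71 and -0.09, and that of ALDOC 0.03 and 0.94.

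After serum in siPFDN2, BNIP3 stood at 49.97 and 45.5 CPM against 19.9 and 41.9 in siControl (0.63, SE 0.35) and PDK1 at 32.9 and 29.2 against 17.1 and 26.9 (0.49, SE 0.36). In both genes the siPFDN2 libraries stood above both of siControl, whose replicates differed more from each other than the siPFDN2 libraries did. Without replicate 1 and 2 of siControl after, the BNIP3 difference was 0.19 and 1.33, and the PDK1 difference 0.21 and 0.93. After serum the largest differences of the libraries labelled siPFDN5 from siControl were in ANKRD37 (0.69, SE 0.25), ALDOC (0.58, SE 0.30), TPI1 (0.49, SE 0.15) and PGAM1 (0.49, SE 0.18). Leaving out replicate 1 and 2 of siControl after gave 0.19 and 1.16 for ALDOC, 0.29 and 0.77 for TPI1, and 0.27 and 0.79 for PGAM1. ANKRD37 stood at 16.7 and 15.4 CPM there and at 8.72 and 11.1 in siControl (edgeR adjusted p = 0.157; over its alternatives 0.00243 to 0.740, with 6 of 23 making the call).

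Single libraries moved these counts. Without siPFDN2 before replicate 1, 16 members (11 higher, 5 lower) were called for siPFDN2 before serum, beside 41.8% of all genes. The count then was 2 for siPFDN5 before serum (6.74% of all genes), and 7 in the libraries labelled siPFDN5 after it (23.6%). Without its replicate 2 the counts were 0, 2 and 7 (0.0241%, 6.96% and 23.9% of all genes). Without siControl after replicate 2, 4 members were called for the libraries labelled siPFDN5 after (9.15%). No library left out gave a call for siPFDN2 after serum. In intronic counts 1 of 31 members was called in these 4 comparisons: NDRG1, lower in the libraries labelled siPFDN5 after serum (33.5 and 25.8 CPM) than in siControl (57.00 and 56.7 CPM; log2 fold change -0.94, SE 0.25, edgeR adjusted p = 0.0477), beside 3.8% of all genes.

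The members differed between libraries of 1 group in 2 ways. The share of all genes given beside these counts is over genes at a mean log2 CPM of at least 3, which 32 members pass. In siPFDN2 before serum, 8 of the 34 members were at least 0.5 higher (log2) in replicate 2 and 8 at least 0.5 lower. Of the 32 these were 7 and 8, beside the 22.7% and 31.4% of all genes above. Across the 34 members this difference followed GC content, which runs from 36.4 to 64.1%, with Pearson's r of 0.82 and Spearman's rho of 0.76, a description across genes that share 2 libraries. GC-rich PFKL and SLC16A3 were higher and GC-poor HIF1A lower in replicate 2. HIF1A stood at 263 and 126 CPM and SLC16A3 at 238 and 406.

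In siControl the pattern was another. Of the 34 members, 32 were higher in replicate 2 than in replicate 1 before serum and 30 after it, with 11 and 8 at least 0.5 higher (log2) and none as much lower. Of the 32 members that pass the level above, 30 and 28 were higher, with 9 and 8 at least 0.5 higher. Among all 12105 genes at that level 48.8% were higher in replicate 2 before serum and 64.2% after it. At least 0.5 higher were 0.801% and 0.768%, and at least 0.5 lower 0.397% and 5.67%. P4HA1 stood at 51.02 and 98.8 CPM before and 44.4 and 87.5 after serum, BNIP3 at 22.5 and 43.00 and 19.9 and 41.9, and ALDOC at 36.1 and 68.00 and 31.7 and 60.2. PDK1 stood at 15.1 and 28.7 and 17.1 and 26.9. Across members the replicate differences before and after serum had r of 0.62 and rho of 0.59 (n = 34), and with GC content r was -0.16 and -0.15. In intronic counts before serum, replicate 2 was also the higher for P4HA1 (24.02 and 40.95 CPM), PDK1 (5.48 and 13.7), BNIP3 (5.59 and 9.29) and KDM3A (12.8 and 18.8). After serum it was not: P4HA1 was at 19.02 and 17.8, PDK1 at 8.12 and 6.51, BNIP3 at 2.48 and 2.30 and KDM3A at 8.42 and 7.49. In gene-body counts of the other 3 groups no member differed by 0.5. The part of this spread in the comparisons with siControl was not tested beyond leaving out each library.

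**Figure D5:**
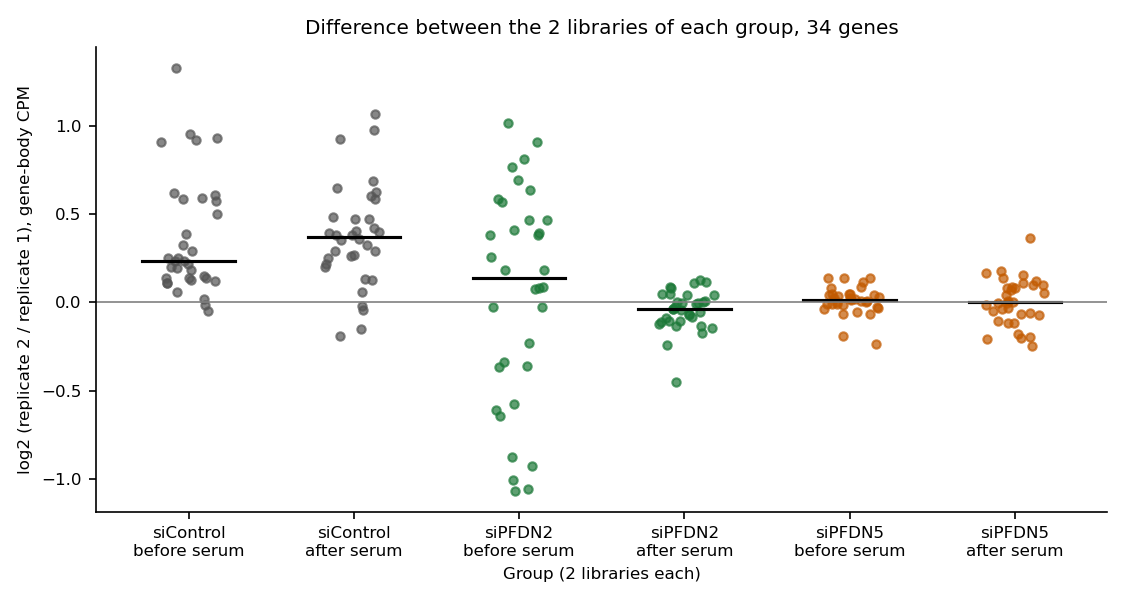
Log2 ratio of replicate 2 to replicate 1 for each of the 34 members (points) in the 6 groups, in gene-body counts, with the group labelled siPFDN5 after serum included. In siControl before and after serum 32 and 30 members lie above 0, in siPFDN2 before serum 8 lie above 0.5 and 8 below -0.5, and in the other 3 groups all lie within 0.5.

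Other genes of the pathway were tested in the same averaged serum response. Of 21 tested from 24 further glycolysis genes 2 rose, PFKFB2 (0.72, SE 0.12) and TIGAR (0.51, SE 0.11), and SLC2A4 (-0.38, SE 0.11), the insulin-dependent glucose transporter, fell. PFKFB2 and TIGAR act on the same fructose bisphosphate as PFKFB3, the first as kinase and phosphatase and the other as phosphatase. Of 14 HIF regulators 2 rose, CITED2 (1.46, SE 0.08), which competes with HIF for the coactivator p300, and ELOC (0.48, SE 0.14), a subunit of the VHL ligase. Of 29 further HIF targets 5 rose and 3 fell. The rises included PPP1R3C (2.92, SE 0.41), BHLHE40 (2.67, SE 0.13) and ANGPTL4 (1.94, SE 0.15), and the falls were in RSBN1 (-0.69, SE 0.13), DDIT4 (-0.64, SE 0.10) and ANKZF1 (-0.46, SE 0.10). BHLHE40 and ANGPTL4 are also known as genes induced by serum or growth factors. In intronic counts 3 rose and 3 fell of 19 glycolysis genes, 1 rose and 4 fell of 13 HIF regulators, and 6 rose and 7 fell of 23 HIF targets, beside the 14.2% and 15.1% of all genes given above. The pyruvate dehydrogenase kinases PDK2 and PDK3 fell in introns, PDK2 (-1.07, SE 0.25) and PDK3 (-1.11, SE 0.18), as PDK1 did. The PDK1 introns carry the AC078883.1 exons given above.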

How the data were processed

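RNA of 12 libraries was measured by RNA-seq after 18S rRNA depletion, with random hexamer priming, per the labels' protocols. The authors deposited 2 tables of raw counts by gene, one over the gene body and one over exons, and estimated counts by transcript. Per the file headers, counts came from featureCounts v1.5.2 with Ensembl GRCh38 release 87, read pairs, overlapping genes allowed and no strand option; the submitters' processing notes name HISAT2 0.12.2, kallisto 0.43 and GRCh38.p7. A further 6 columns matched no sample and were not used.

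Intronic counts were computed as gene-body minus exon counts. Main tests were edgeR (4.0.16, R 4.3.3) quasi-likelihood fits with TMM scaling and filterByExpr over all 12 libraries and 6 groups, with Benjamini-Hochberg adjustment over 27915 genes, called at 0.05. The intronic tests ran over 19731 genes, and the intronic against exonic test over 17390, with library as block. Transcript estimates were summed per gene and rounded. Fold changes are log2, with SE from the F statistic. DESeq2 1.42.0 was an alternative. RPKM used exon length. Tests were checked on simulated data: for the averaged serum response in gene-body counts (27915 genes), 100% of 100 genes changed by 1 on the log2 scale and 53% of 100 changed by 0.5 were recovered, with 4.97% false among the calls. For intronic counts (17390 genes) it was 100% and 39%, with 7.33% false, and for the intronic against the exonic change (17390 genes) 77.8% and 11%, with 7.37% false. Apart from the set changes, libraries were simulated from a common mean per gene and a spread that followed abundance. Changed genes had a mean log2 CPM of at least 3. Differences tied to GC content or to a single library, as in siPFDN2 before serum, were not simulated. The recovered and false shares therefore need not hold for these data, or for members below that level. Gene-body counts of 59784425 to 136504590 per library set the counting precision. The labels do not say that libraries came from separate cultures, so p-values measure only the spread between these samples, which may be technical. Replicate numbers were not used as a block in the main fit. Every member may be named. Values per library are given for up to 10 called members with the largest change in a comparison, or for up to 4 with the largest difference where none was called, isozymes are set side by side, and up to 4 called genes in each direction are named from the other lists, of which 1 is not reported here. Members and lists were chosen with earlier results of these data known. Alternatives changed the counted region, scaling, filter, GC trend, replicate block, test and libraries used; averages over siControl and 1 prefoldin siRNA, and the alternatives of the intronic response differences, were added after seeing the data.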

Additional observations from a re-analysis of the deposited data

Results flagged for a closer look

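The intronic serum responses of NDRG1 and GAPDH differed between siPFDN5 and siControl by a test of the difference itself, in which 12.5% of all genes were called. NDRG1, a stress- and hypoxia-responsive gene, had intronic levels in siControl 24.2 and 21.4 CPM before serum and 57.00 and 56.7 after it, in siPFDN2 15.4 and 21.1 before and 41.3 and 28.3 after, and in siPFDN5 35.7 and 30.4 before and 33.5 and 25.8 in those so labelled after. It rose by 1.32 in siControl and had a value of -0.16 in siPFDN5, a difference of -1.48 (SE 0.35, edgeR adjusted p = 0.0318). GAPDH had intronic levels in siControl 23.2 and 19.6 CPM before serum and 10.5 and 18.7 after it, in siPFDN2 27.5 and 37.02 before and 17.7 and 13.6 after, and in siPFDN5 9.24 and 8.54 before and 16.6 and 16.1 in those so labelled after, a difference of 1.42 (SE 0.38, edgeR adjusted p = 0.0323). The NDRG1 call was lost in 8 of 12 fits without 1 library, over which the difference ran from -1.68 to -1.31. The GAPDH call was lost in 9 of 12, over which the difference ran from 1.07 to 1.89, and with library size only. In most of these fits the calls of all other genes fell away as well, so the 12.5% moved with them. GAPDH intronic counts are 0.129% of its gene-body counts. Before serum, siPFDN5 stood above siControl for NDRG1 and below it for GAPDH. The intronic share of all counts was 22.8 and 25.9% in siPFDN5 before serum and 17.2 and 14.8% in the libraries so labelled after it, and its part in these differences was not tested.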

How the results depend on the processing

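SLC2A3 and ANKRD37 kept their averaged call under all 24 alternatives. EGLN3 reversed to -0.22 in exon counts and -0.18 in transcript estimates; the cause was not tested, beside the SPTSSA counts given with it. In brackets after each alternative are the genes called higher and lower among all tested. Gene-body counts with 1 library left out are given above. Averaged serum calls (5) were 3 in exon counts (1456 and 1273 of 24889) and 8 with the GC trend removed (3971 and 4170 of 27915). They were 8 with a replicate block and GC trend removed (3700 and 3833 of 27915). They were 3 with siPFDN5 left out of the average (1366 and 892 of 27915) and 3 with siPFDN2 left out (1206 and 701 of 27915). Serum in siControl (1) gave 2 by transcript estimates (273 and 74 of 17819) and 2 with no filter (1405 and 222 of 48486). It gave 4 with GC (1313 and 527 of 27915) and 3 with replicate block and GC (1155 and 436 of 27915). It gave 4 with only the libraries compared (812 and 253 of 26448) and 2 by DESeq2 (964 and 240 of 27915). Serum in siPFDN2 (2) gave 4 by library size only (570 and 2846 of 27915) and 11 with no filter (1878 and 3416 of 48486). It gave 0 with only the libraries compared (37 and 0 of 25817). Serum in siPFDN5 (4) gave 2 by upper-quartile scaling (1203 and 2187 of 27915) and 2 by library size only (776 and 2470 of 27915). It gave 9 with no filter (2256 and 3085 of 48486) and 8 with GC (3458 and 4590 of 27915). It gave 21 with only the libraries compared (6915 and 6826 of 25225) and 9 by DESeq2 (2265 and 2318 of 25750). Of the comparisons with 0 calls, siPFDN2 before serum gave 2 with no filter (999 and 84 of 48486). By DESeq2 it gave 1 (15 and 12 of 17632). The siPFDN5 comparison before serum gave 5 with only the libraries compared (2667 and 2347 of 25728). The siPFDN2 comparison after serum stayed at 0. The libraries labelled siPFDN5 after gave 1 with no filter, with GC, with replicate block and GC, with only the libraries compared and by DESeq2, and 0 to 7. The response differences gave 1 with no filter for siPFDN2 (43 and 620 of 48486) and 1 for siPFDN5 (257 and 2156 of 48486). For siPFDN5 they gave 4 with only the libraries compared (2361 and 1675 of 27015) and 1 by DESeq2 (397 and 1367 of 25750). Intronic calls (16) ran from 14 to 19 and calls relative to exons (19) from 15 to 21, the latter 11 with siPFDN2 left out of the average. Intronic calls were 21 (1 higher, 20 lower) by library size only (1005 and 6934 of 19731), which moves the median of all genes to -0.36. NDRG1, PFKP and BNIP3L were then not called. The same scaling moves the gene-body median to -0.17. The labels do not say what libraries of the same replicate number share, and a common batch was not tested. Differences between replicates 2 and 1 correlated across genes at -0.322 to 0.592 between groups. The replicate block alone changed no count by over 1.5 times. Depth limits CA9 (17 to 70 counts) and the introns of TPI1 (500 counts in all) and SLC2A3 (95).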
